A study of Mus musculus with 4 samples.

Results

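The constitutive proteasome subunit genes were taken as the probe sets with a single platform gene symbol that begins with Psm, a letter from a to g and a digit, leaving out Psmb8, Psmb9 and Psmb10. This rule found 82 probe sets of 45 genes, out of 22626 probe sets, of which 20380 carried 1 symbol. By role, the genes were 8 of the alpha ring, 7 of the beta ring, 6 ATPases, 11 non-ATPase subunits of the regulatory particle, 7 assembly chaperones and 4 activators or inhibitors. The remaining 2, Psme3ip1 and Psmc3ip, match the letters but encode no subunit: Psme3ip1 is a partner of the activator Psme3, and Psmc3ip is a meiotic recombination protein. A further probe set, shared by Psme2 and Psme2b, carried several symbols and was not used.

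The arrays measured RNA from Langerhans cells, the antigen-presenting cells of the mouse epidermis, sorted to 95% purity. Mice had been given 100 µl of an oil-based vehicle, with or without 10 µg of the dioxin TCDD, and cells were taken after 24 h. TCDD acts through a ligand-activated transcription factor, the aryl hydrocarbon receptor (AhR). There were 2 control and 2 TCDD arrays. Back skin is the named site of control 2 and TCDD 2, and no site is named for control 1 and TCDD 1. Each such pair is called a preparation. Control 1 had received DMSO with olive oil, TCDD 1 the dioxin in oil and TCDD 2 the dioxin in DMSO and oil, injected into the peritoneum. The labels of control 2 conflict: its description names a control experiment and its title no TCDD, whereas its treatment text repeats that of TCDD 2. Title and description decided its group here. The labels used here give no strain or age and do not say whether single or pooled mice supplied an array. P-values therefore measure only how far these arrays spread, and that spread may be technical.

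The proteasome is the protease of the cytosol and nucleus that degrades proteins tagged with ubiquitin. Its barrel-shaped core has outer alpha rings that gate the entrance and inner beta rings that hold the active sites, and a regulatory particle with a ring of ATPases unfolds the substrates and feeds them in. In antigen-presenting cells its peptides also supply MHC class I molecules. In the immunoproteasome the catalytic subunits Psmb5, Psmb6 and Psmb7 are replaced by Psmb8, Psmb9 and Psmb10. The transcription factor Nfe2l1 raises transcription of proteasome genes when degradation falls short.

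Promoter windows from RefSeq (GRCm38.p6) were available for 37 of the 45 genes and were searched on both strands, over the 250 bases before the start, for the core TGACNNNGC to which Nfe2l1 and Nfe2l2 bind and for the AhR core GCGTG. The first was found in 5 of the 37 genes (Psmb5, Psmb6, Psmc6, Psmd9 and Psmd12), or 13.5%, against 11.5% of 27025 genes in the table. GCGTG was found in 15 of 37, or 40.5%, against 30.9%, and the CCAAT box, written CCAAT, in 14 of 37, or 37.8%, against 37.5%. A match in these letters is a description and not a bound site. The 8 genes without a window, among them Psmb1, Psmb2 and the catalytic subunit Psmb7, were not searched. Windows are shown for both catalytic subunits that hold TGACNNNGC, for Psma7, the alpha subunit with the largest TCDD difference of one sign in both preparations, which holds GCGTG, and for Psmb3, the subunit with the largest TCDD difference, which holds neither. Capitals mark TGACNNNGC or GCGTG on either strand. The windows are chr14:54617996-54618245 on the minus strand, chr11:70525107-70525356 on the plus strand, chr2:180042465-180042714 on the minus strand and chr11:97703184-97703433 on the plus strand, each read 5′ to 3′ towards the gene.
Psmb5: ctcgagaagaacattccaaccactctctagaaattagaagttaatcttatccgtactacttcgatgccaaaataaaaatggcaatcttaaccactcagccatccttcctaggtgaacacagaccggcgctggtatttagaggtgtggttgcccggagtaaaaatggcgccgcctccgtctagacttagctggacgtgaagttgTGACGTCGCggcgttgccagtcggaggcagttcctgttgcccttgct
Psmb6: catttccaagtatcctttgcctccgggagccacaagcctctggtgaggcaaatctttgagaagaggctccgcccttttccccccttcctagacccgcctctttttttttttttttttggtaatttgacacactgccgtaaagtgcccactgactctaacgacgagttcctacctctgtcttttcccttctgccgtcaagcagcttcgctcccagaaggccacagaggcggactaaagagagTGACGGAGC
Psma7: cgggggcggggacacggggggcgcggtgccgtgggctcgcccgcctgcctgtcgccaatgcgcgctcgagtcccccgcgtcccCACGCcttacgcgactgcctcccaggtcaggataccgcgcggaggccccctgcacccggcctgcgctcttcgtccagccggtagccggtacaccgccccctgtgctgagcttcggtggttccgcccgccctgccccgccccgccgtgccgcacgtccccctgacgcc
Psmb3: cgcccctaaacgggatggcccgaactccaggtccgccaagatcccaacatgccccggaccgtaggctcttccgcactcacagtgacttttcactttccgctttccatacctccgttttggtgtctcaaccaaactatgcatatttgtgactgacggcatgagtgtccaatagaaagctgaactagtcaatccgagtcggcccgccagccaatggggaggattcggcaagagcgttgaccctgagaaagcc
Counted from the start of the gene, the TGACNNNGC match begins at -47 in Psmb5 and at -9 in Psmb6, and the GCGTG match of Psma7, which reads CACGC on the printed strand, begins at -167.

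Values are MAS5 signals, a linear intensity per probe set, and every array was scaled to the same trimmed mean. Wherever 4 signals follow each other, they stand in the order control 1, TCDD 1, control 2, TCDD 2. The median signal ran from 164.9 on control 1 to 188.2 on control 2. RNA quality differed: for actin the 3′ probe set read 49.7 times the 5′ one on control 1 and 3.48 to 7.71 times on the other arrays, and for Gapdh these ratios were 106.8 and 9.55 to 15.9. Of the markers of the labelled cell type, 8 of 8 lay above the expression filter, with Epcam between 7541 and 10032 and Cd207, langerin, between 2120 and 7211. The summed signal of 6 T cell markers was 569.4, 1146, 1755 and 530.5. That of 7 keratinocyte markers lay between 886.7 and 1196, of 4 melanocyte markers between 608.6 and 886.2 and of 5 fibroblast and endothelial markers between 523.9 and 937.2. Both B cell and erythroid markers on the array lay below the filter.

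The first question was whether proteasome genes differed after TCDD. No member passed the test: 0 of 66 tested probe sets, covering 43 genes, differed between TCDD and control (limma, adjusted p = 0.9999 for each), where 0 of 13576 did over the array (0%). At an unadjusted p under 0.05 there was 1 member, a probe set of Psmb3, beside 199 of all probe sets (1.47%). The 66 were those whose mean log2 signal reached 6.85, a geometric mean signal of 115.4. That filter kept 80.5% of the members and 60% of all probe sets. The other 16 member probe sets read between 1 and 229.7, and among them were all those of Psma8, an alpha subunit of the testis, and Psmc3ip, so that 2 genes were not tested. Psma8 read 95.1, 86.7, 125 and 79.3, and Psmc3ip 51, 184.6, 147 and 104.6. The highest mean log2 signal left out was 6.80 and the lowest kept 7.05. In bulk RNA, fewer cells of a type and less RNA per cell cannot be told apart.

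The members' TCDD minus control log2 differences had a median of 0.05, beside -0.01 over all tested probe sets, and 60 of 66 (90.9%) lay within 0.5 of zero, beside 87.5%. The members were brighter, with a median geometric mean signal of 1445 against 387 over all tested probe sets. Shares over all probe sets were not matched for signal, and the part of signal level in them was not tested. The standard error of a single member's difference was between 0.30 and 0.57 log2 units (n = 2 per group). The median 95% interval, which is not adjusted for the number of probe sets, reached 0.79 to either side. A change of that size or less was not detectable, and larger ones could also be missed. The largest member difference, 1.37, did not pass after adjustment. Within preparations the members' median log2 ratio of TCDD to control was 0.17 with no site named and 0.01 for back skin, beside 0.03 and -0.06 over all. Higher after TCDD in both preparations were 16 of 66 (24.2%) against a background of 19.3%, and lower in both were 8 (12.1%) against 21.3%. With each array centred on its median these counts were 23 (34.8%, against 18.6% of all) and 7 (10.6%, against 20.8%). The other 42 went opposite ways, 23 of them up with no site named and down in back skin. Pearson's r between the ratios of both preparations, which share no array, was -0.23 across the 66 members and -0.25 across all probe sets, which are not independent replicates.

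**Figure D1:**
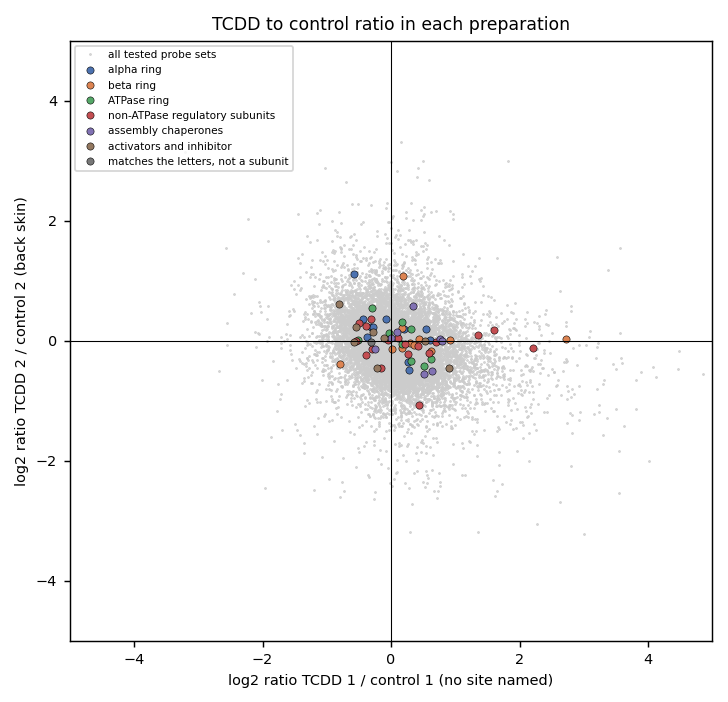
The log2 ratio of TCDD 1 to control 1 (x axis, no site named) is set against that of TCDD 2 to control 2 (y axis, back skin) for 13576 tested probe sets (grey) and the 66 members (coloured by role). Most members lie near the origin, and 4 of them extend to the right, beyond 1 on the x axis and near 0 on the y axis.

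Both TCDD arrays lay above both controls for 12 of 66 members (18.2%), against 12.4% of all probe sets, and below both for 4 (6.06%), against 13.2%. After median centring they were 18 (27.3%, against 12.2%) and 3 (4.55%, against 12.8%). The 12 belonged to Psma7, Psmb4 and Psmd13 with 2 probe sets each and to Psmb3, Psmb5, Psmc2, Psmc3, Psmd9 and Psmg4 with 1 each. The 4 belonged to Psmd3, Psmd5, Psmf1 and Psme3ip1. These counts depended on which control was used. Against control 2 alone, both TCDD arrays were higher for 24 of 66 members, a larger share than the background of 30.4%. They were lower for 14 of 66, a smaller share than the background of 37%. Against control 1 alone they were higher for 33 of 66, a larger share than the background of 36.9%. They were lower for 22 of 66, a share near the background of 34.1%. With 3 arrays the preparation term has to be dropped along with the array, since both terms would leave no residual degree of freedom. In such a fit without control 2, whose labels conflict, 4 member probe sets of Psmb3, Psmd4 and Psmd13 passed the test (limma, background 2.1%). With the term dropped and all 4 arrays kept, 0 passed. When control 1 was left out, 0 members passed (background 0.0884%), and without TCDD 1 or TCDD 2 0 did (background 0%).

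**Figure D2:**
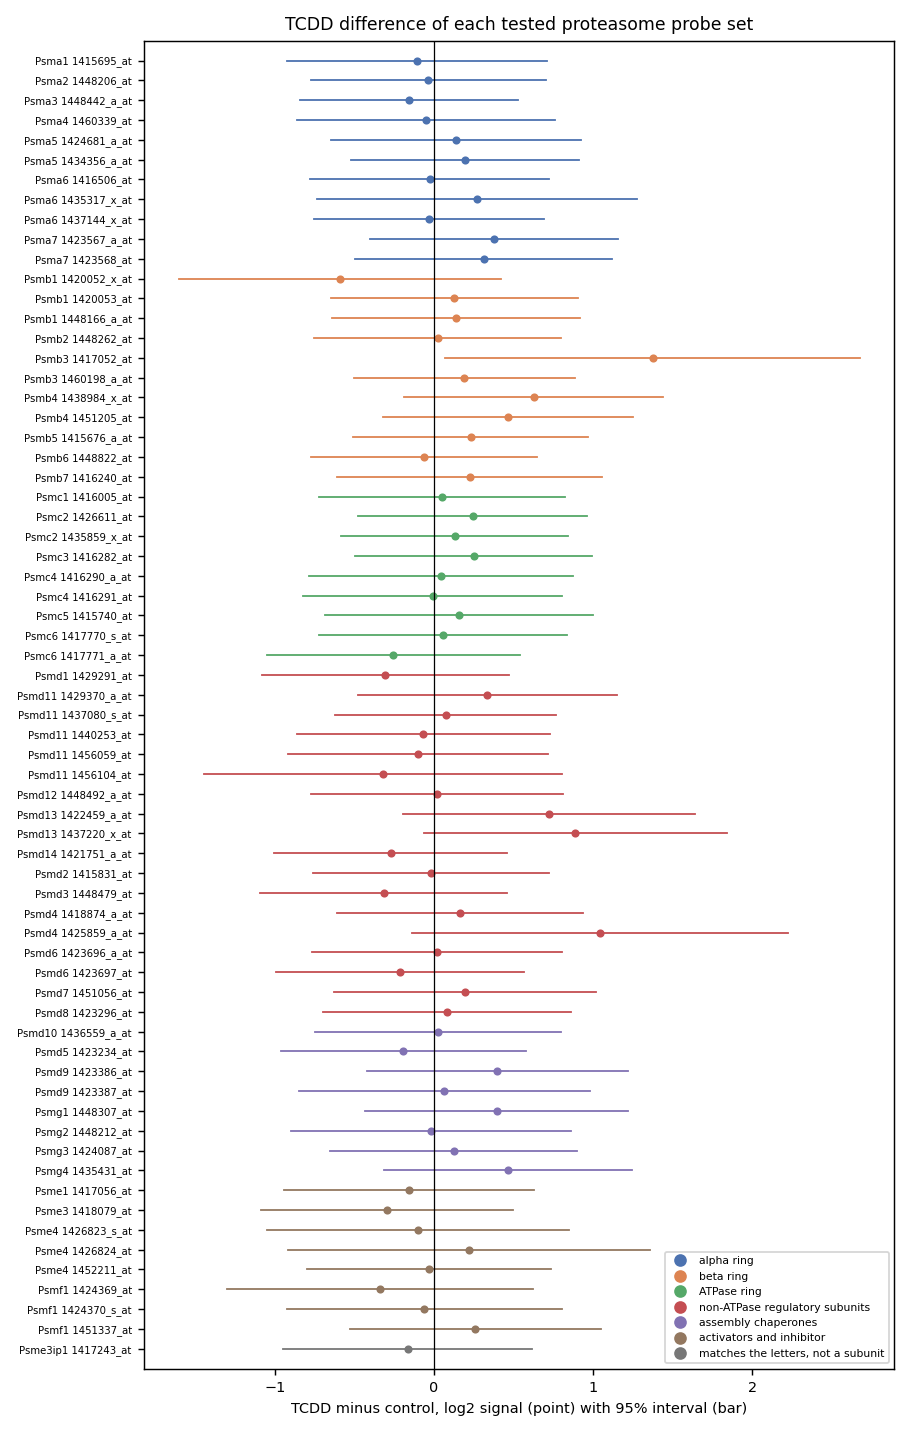
TCDD minus control difference in log2 signal (point) with its 95% interval from limma (bar) for each of the 66 tested member probe sets, ordered and coloured by role. Of the intervals, 65 include zero, and the exception is Psmb3 probe set 1417052_at, at 1.37.

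The beta ring carries the active sites. Psmb5, the chymotrypsin-like subunit, read 3529, 4763, 4469 and 4548. The TCDD arrays were thus both above the controls, but TCDD 2 only just above control 2, and the difference was 0.23 ± 0.33 (SE). Psmb6, the caspase-like subunit, read 4782, 4809, 6202 and 5662, and the higher values were those of back skin (-0.06 ± 0.31). Psmb7, the trypsin-like subunit, read 754, 1155, 863.4 and 770.0, with TCDD 1 alone standing above the rest (0.23 ± 0.37). The sign of Psmb6 and that of Psmb7 turned when single arrays were left out. None of the catalytic subunits passed the test (limma, adjusted p = 0.9999), and their 95% intervals ran from -0.51 to 0.97 for Psmb5, -0.77 to 0.65 for Psmb6 and -0.61 to 1.06 for Psmb7.

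Of the 11 tested beta ring probe sets, 5 were higher after TCDD in both preparations, 1 was lower in both and 5 were up with no site named and down in back skin, with a median difference of 0.19. Over all tested probe sets these shares were 19.3%, 21.3% and 33.5%, and 25.8% went down with no site named and up in back skin. They are the background for every role below. Higher and lower in both numbered 4 and 1 under quantile normalization and 7 and 2 under median centring. Psmb4, a structural subunit, read 3717, 7027, 6760.1 and 6793 by probe set 1451205_at (0.46 ± 0.35). By its other probe set, 1438984_x_at, it read 3375, 3819, 2519 and 5295 (0.63 ± 0.36). Both put the TCDD arrays above the controls, yet the first separates control 1 from the rest and the second separates TCDD 2. Psmb2, a structural subunit with 1 probe set, ranged from 1347 on control 1 to 1968 on control 2 (0.02 ± 0.34). On control 1, 9 of the 11 beta ring probe sets had their lowest value, 81.8%, where 31.7% of all tested probe sets did. After median centring it was 6 of 11, beside 23.7%.

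The largest TCDD difference of any member belonged to Psmb3, another structural subunit. Its probe set 1417052_at read 309.9, 2050.1, 1802 and 1827. Control 1 stood 6.10-fold below the geometric mean of the other 3 arrays, and those 3 lay close together. The TCDD minus control difference was 1.37 ± 0.57 (limma, adjusted p = 0.9999), made of a log2 ratio of 2.73 with no site named and 0.02 for back skin. A second Psmb3 probe set, 1460198_a_at, read 5191, 5851, 7138 and 8249.9 in the same order (0.19 ± 0.31), with a log2 distance of control 1 from the others of -0.43 in place of -2.61. The low value of control 1 was therefore not shared at its full size by both probe sets of the gene.

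The alpha ring showed no common direction. Of its 11 tested probe sets, 3 were higher in both preparations, 0 lower in both and 6 down with no site named and up in back skin, and the median difference was -0.03. Psma7 read 1385, 2022, 1655 and 1902 by probe set 1423567_a_at (0.37 ± 0.34) and 798.2, 1217, 1157.5 and 1169 by probe set 1423568_at (0.31 ± 0.36). On both, control 1 was lowest and TCDD 1 highest, and control 2 lay below TCDD 2. Psma3 read 12968, 9985, 8429 and 8811.5 (-0.16 ± 0.30). Control 1 was there the highest array. Psma5, with 2 tested probe sets, gave 0.14 ± 0.34 and 0.19 ± 0.31, and Psma1, Psma2 and Psma4, with 1 each, gave -0.11, -0.04 and -0.05. The tested probe sets of Psma6 gave differences between -0.03 and 0.27. Control 2 was the lowest array of 5 of the 11 alpha ring probe sets (45.5%, against 23.2% of all tested probe sets).

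The ATPases, which unfold substrates, had differences near zero. All 9 tested probe sets of Psmc1 to Psmc6 lay within 0.5 of zero, between -0.26 and 0.25. Psmc3 read 2650.4, 3273, 2896 and 3311, with both TCDD arrays above both controls (0.25 ± 0.33). Psmc2 by probe set 1426611_at read 4698, 5307, 3991 and 4939, again with the TCDD arrays on top (0.24 ± 0.32), and by probe set 1435859_x_at it read 15067, 12312, 12219 and 17896, where the groups overlapped (0.13 ± 0.31). Psmc6, by probe set 1417771_a_at, read 2593, 1808, 1414 and 1423 (-0.26 ± 0.35), with control 1 well above the rest. Psmc4, by probe set 1416290_a_at, read 2231, 3184, 3546 and 2635.5, so that both its extremes were controls (0.04 ± 0.37). Psmc1 and the first of the Psmc6 probe sets, 1417770_s_at, both gave 0.05, and Psmc5 gave 0.16.

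Among the non-ATPase subunits of the regulatory particle, the median difference over 18 tested probe sets was 0.02, and TCDD was higher in both preparations for 3 of them and lower in both for another 3. Psmd13, a lid subunit, read 643.2, 1638, 1356 and 1448.5 by probe set 1422459_a_at (0.72 ± 0.40). Its other probe set, 1437220_x_at, gave 403.3, 1225, 1023 and 1153 (0.89 ± 0.42). Both probe sets placed control 1 lowest, 2.30-fold and 2.80-fold below the geometric mean of the other arrays, and within back skin the log2 ratios were only 0.09 and 0.17. Psmd4, a ubiquitin receptor, read 135.1, 621.3, 529 and 487.9 by probe set 1425859_a_at (1.04 ± 0.52), 4.02-fold lower on control 1, with TCDD 2 below control 2. By probe set 1418874_a_at it read 2150.3, 2864, 3295 and 3094 (0.16 ± 0.34), with control 1 again lowest but by less.

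Lower values after TCDD were small in this group. Psmd3, a lid subunit, read 1309, 998.5, 1113 and 939.3 (-0.32 ± 0.34), with no overlap. Psmd1, a scaffold of the base, read 2235, 2008, 1729 and 1259 (-0.31 ± 0.34), lower in each preparation, though control 2 lay below TCDD 1. Psmd2, the other large scaffold, was the steadiest of these, at 3126, 3015, 3209 and 3235 (-0.02 ± 0.33). Psmd14, which removes ubiquitin chains from substrates, read 7780.0 on control 1 and between 5318.5 and 5323 on the other 3 arrays (-0.27 ± 0.32). Control 1 was thus the one array that departed for Psmd14, upward, while for Psmd13 and Psmd4 it departed downward. The lid subunits Psmd7, Psmd8 and Psmd12 gave 0.20, 0.08 and 0.02, and Psmd6 gave 0.02 and -0.21 by its probe sets.

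Of the assembly chaperones, which put the rings together and are not part of the finished particle, 3 of 8 tested probe sets were higher after TCDD in both preparations and 1 was lower in each, with a median difference of 0.09. Psmg4, which helps build the alpha ring, read 533.6, 678.5, 671.3 and 1005.5 (0.46 ± 0.34). TCDD 1 and control 2 were almost equal there, and TCDD 2 stood apart. Psmd5, which helps build the ATPase ring, read 1991, 1679, 1749.9 and 1589 (-0.19 ± 0.34), with the TCDD arrays below both controls. Psmg1 read 262.8, 455.5, 397.8 and 396 (0.39 ± 0.36), so the low value was that of control 1. Psmd9, which also helps build the ATPase ring, read 217.9, 370.3, 348.7 and 356.3 by probe set 1423386_at (0.40 ± 0.36), where only control 1 stood apart, and gave 0.06 by the other. Psmd10, Psmg2 and Psmg3 gave 0.02, -0.02 and 0.12. Control 1 was the lowest array for 5 of the 8 (62.5%, against 31.7% of all tested probe sets).

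The activators open the core without ATPases. Of the 8 tested probe sets of activators and the inhibitor, 0 were higher in both preparations and 2 were lower in both, and the median difference was -0.08. Psme1, an interferon-inducible activator subunit, read 5385, 3687, 3749 and 4404 (-0.16 ± 0.34), and the preparations went opposite ways. Psme3, the nuclear activator, read 523.2, 351.9, 335.2 and 330.4 (-0.30 ± 0.35), so that control 1 alone stood above the rest. For Psmf1, an inhibitor of the core, probe set 1424369_at read 165.7, 141.8, 170.6 and 124.2 (-0.34 ± 0.42), and probe set 1451337_at read 378.4, 545, 518.6 and 516.1 (0.26 ± 0.35), of opposite sign. Psme3ip1 read 1506, 1213.5, 1289 and 1271 (-0.17 ± 0.34).

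Control 1 was the array on which the members departed most. It was the lowest of the 4 arrays for 31 of 66 member probe sets (47%, background 31.7%) and the highest for 21 (31.8%, against 27.6% of all). After median centring it was lowest for 25 (37.9%, against 23.7%) and highest for 23 (34.8%, against 37.8%). More than 1 log2 unit below the mean of the other 3 arrays lay 4 members (6.06%, background 5.33%): 1417052_at of Psmb3, 1425859_a_at of Psmd4 and both probe sets of Psmd13. More than 0.5 units below it lay 14 (21.2%, background 17.2%), and more than 0.5 above it 8 (12.1%, background 11.4%). More than 1 unit above it lay 1 (1.52%, background 1.34%), Psmb1 probe set 1420052_x_at, which read 226.4, 130.5, 119.7 and 91.5. The members' range over the 4 arrays had a median of 0.55 log2 units, beside 0.65 over all tested probe sets, and without control 1 it was 0.31, beside 0.47. A range over 3 arrays cannot exceed that over 4, and it was not computed without any other array, so the fall singles out no array. The members were the brighter probe sets, and these ranges were not matched for signal. Between TCDD 1 and control 2, which differ in both treatment and preparation, the members' median absolute log2 difference was 0.17, the smallest of the 6 pairs of arrays, and between the 2 controls it was 0.41, the largest. Over all tested probe sets the same pairs were smallest and largest, at 0.25 and 0.39. The T cell marker sum was highest on TCDD 1 and control 2. So was the fibroblast and endothelial sum, at 523.9, 652.8, 937.2 and 573.3. The keratinocyte sum, the melanocyte sum and the B cell and erythroid sum were not. Among the T cell markers, Cd247, at 139.2, 117.5, 236.1 and 106.7, did not follow this split. Of the markers of the labelled cells, Cd207, at 2120, 5343, 7211 and 2155, followed the same split. So did Cdh1, at 152.5, 206.6, 166.2 and 137.8. The others did not: Epcam read 8717, 7541, 10032 and 8362 and Csf1r 11348, 8469, 11699 and 9376, both lowest on TCDD 1. The sum of all 8 was 36242, 39614, 51366 and 40386. The part of any of these markers in the closeness of TCDD 1 and control 2 was not tested. Control 1 also had the highest 3′ to 5′ ratios, and the part of RNA quality in these values was not tested.

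**Figure D3:**
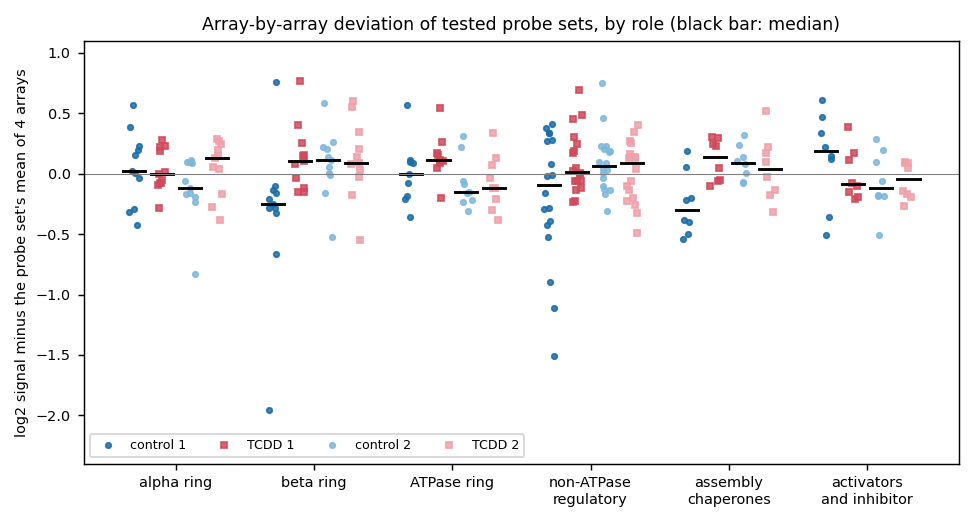
For each role, the log2 signal of every tested member probe set minus its own mean over the 4 arrays is shown for control 1, TCDD 1, control 2 and TCDD 2 (points), with the median (black bar). The median of control 1 lies below those of the other arrays in the beta ring (-0.25), among the assembly chaperones (-0.30) and among the non-ATPase subunits (-0.09). For the activators and inhibitor it lies above them (0.18). After median centring these were -0.15, -0.20, 0.0062 and 0.28. For the non-ATPase subunits control 1 then lay between the other arrays (TCDD 1 -0.020, control 2 -0.026, TCDD 2 0.115). In the ATPase ring control 1 was then highest, at 0.095, beside 0.081 for TCDD 1.

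The same 4 probe sets were those that passed the test without control 2 and without the preparation term, a fit in which both TCDD arrays are set against control 1 alone and control 1 is assumed to vary like the others. There the differences were 2.64 for Psmb3 1417052_at (limma, adjusted p = 3.55e-05), 2.03 for Psmd4 1425859_a_at (adjusted p = 0.000848), 1.56 for Psmd13 1437220_x_at (adjusted p = 0.00935) and 1.26 for Psmd13 1422459_a_at (adjusted p = 0.0461). Since control 1 is part of each such difference, its low value and a rise after TCDD cannot be told apart in that fit. Against control 2, the log2 ratios of TCDD 2 were 0.02, -0.12, 0.17 and 0.09 in the same order.

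**Figure D4:**
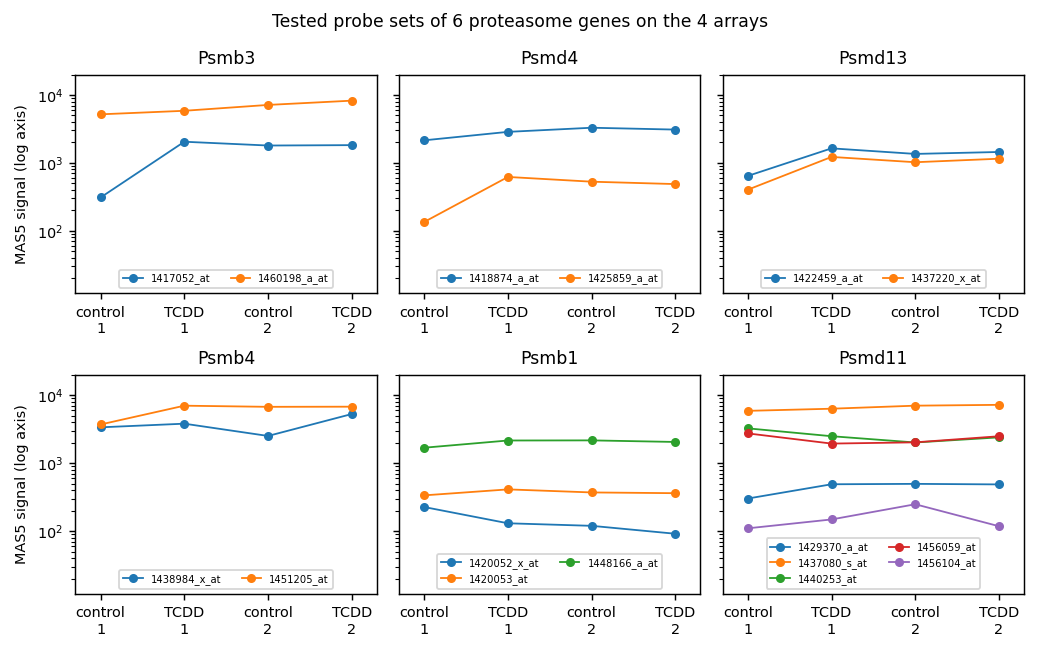
MAS5 signal (log axis) of all tested probe sets of Psmb3, Psmd4, Psmd13, Psmb4, Psmb1 and Psmd11 on control 1, TCDD 1, control 2 and TCDD 2. Lines join the values of one probe set and stand for no order of the arrays. The dip on control 1 is deep in one of the Psmb3 and one of the Psmd4 probe sets and shared by both of Psmd13.

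Probe sets of one gene did not always run together. Of 16 genes with more than 1 tested probe set, 8 had TCDD differences of one sign on all of them and 8 had both signs. The widest ranges with both signs were those of Psmb1, Psmd11, Psmf1 and Psme4. For Psmb1, a structural beta subunit, 1420052_x_at gave -0.59 ± 0.45, while 1448166_a_at, at 1691, 2159, 2168 and 2055, gave 0.14 ± 0.34. For Psmd11, a lid subunit with 5 tested probe sets, 1456104_at read 110, 148.6, 248.8 and 118.1 (-0.32 ± 0.49) and 1429370_a_at read 302, 489.7, 496.5 and 487.4 (0.34 ± 0.36). The first of these had its high value on control 2 and the second its low value on control 1. Psme4, an activator of the nucleus, gave -0.10 ± 0.42 by probe set 1426823_s_at and 0.22 ± 0.50 by probe set 1426824_at. The files do not give the position of a probe set along its transcript, so the distance from the 3′ end was not analysed here.

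The second comparison set back skin against the preparation with no site named. Of the 66 members 0 passed (limma, adjusted p = 0.9994 for each; 0 of 13576 over the array, 0%), and at an unadjusted p under 0.05 there were 0 members and 274 probe sets in all (2.02%). The median back skin minus other difference was 0.03 for the members and 0.01 for all. The 5 largest were those of Psmb3 1417052_at (1.19 ± 0.57), Psmd4 1425859_a_at (0.81 ± 0.52), Psmb1 1420052_x_at (-0.72 ± 0.45), Psmd13 1437220_x_at (0.63 ± 0.42) and Psmc6 1417771_a_at (-0.61 ± 0.35). In all 5 control 1 was an extreme array, the highest for Psmb1 and Psmc6 and the lowest for the others. Without TCDD 1 and without the treatment term, a fit that sets both back skin arrays against control 1 alone, Psmb3 1417052_at (2.55, limma, adjusted p = 0.0057) and Psmd4 1425859_a_at (1.91, adjusted p = 0.0356) passed, against a background of 0.656%. The controls were dated to different experiments, so that skin site and experiment cannot be told apart.

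The other genes of the pathway were taken from a list of 42, of which 30 were on the array under a single symbol, with 50 tested probe sets of 29 genes. None passed for TCDD (limma, 0 of 50), 8 were higher in both preparations (16%, background 19.3%) and 14 were lower in both (28%, background 21.3%), with a median difference of -0.09. The immunoproteasome subunits that stand in for the catalytic members gave 0.14 ± 0.30 for Psmb8, 0.16 ± 0.33 for Psmb9 and 0.27 ± 0.36 for Psmb10. Psmb8 read 8841, 8899, 8394 and 10058. Nfe2l1 read 3510, 2891, 2566 and 3292.5 (0.04 ± 0.34), with the preparations going opposite ways. Pomp, the chaperone that matures the beta ring, read 1837, 2576, 2104 and 2644 (0.41 ± 0.33). Sem1, a small lid subunit whose symbol lies outside the rule, gave 0.55 ± 0.32 and 0.20 ± 0.34 by its probe sets. Akirin2, which helps bring proteasomes into the nucleus, read 2297, 1663, 2414 and 1287 (-0.69), with the TCDD arrays below both controls.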

How the data were processed

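The authors deposited, for each of 4 arrays, MAS5 signals, which are linear intensity values. RNA had been amplified with a MessageAmp kit, per the labels. The authors' tools were affy and MAS5, per the submitters' processing notes, which list no versions. All 4 arrays had a mean of 500.0 after removal of the lowest and highest 2% of probe sets, so they had been scaled alike. Gene names came from the platform annotation, and all 82 member probe sets matched a RefSeq table (GRCm38.p6) by gene ID.

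Signals were taken to log2. The 13576 probe sets at or above the 40th percentile of mean log2 signal, leaving out 64 control probe sets, entered a linear model with terms for treatment and preparation (limma 3.58.1, R 4.3.3). Its variance prior followed the mean signal, and p-values were adjusted by Benjamini-Hochberg over all of them, with calls at 0.05. Only 1 residual degree of freedom remains, and the small number of arrays limits the precision. The members, gene lists and tests were chosen with earlier results of these data known.

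Members with full values were the catalytic subunits, per role and direction the 1 probe set with the largest difference of one sign in both preparations, the 5 with the largest preparation difference, the 5 farthest from the mean of the other arrays on control 1, and up to 4 genes whose probe sets disagree. Others are named for their role or as members of a small count and were chosen after their values were seen. As alternatives, the scaling, the filter, an offset before the logarithm, the variance trend and the preparation term were changed one at a time, each array was left out together with the other term of the model, and members were reduced to 1 probe set per gene.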

Additional observations from a re-analysis of the deposited data

Results flagged for a closer look

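Psme4, which encodes a large activator of the core particle, had log2 ratios of TCDD to control in opposite directions in the preparations by probe set 1426823_s_at: -0.81 where no site is named and 0.60 for back skin. The controls read 2165 and 996.1, and in the same order of preparations the TCDD arrays read 1236 and 1514. It was the one tested member probe set that differed by at least 1.5-fold each way (1.52% of members), where 827 of all tested probe sets did (6.09%). These shares were not matched for signal. Each preparation has 1 array per group, so the difference between preparations was not tested. The size of 1.5-fold was set for this listing.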

How the results depend on the processing

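No member differed between TCDD and control under quantile normalization, median centring, no filter, the stricter filter, the offset of 50, no variance trend, no replicate block (preparation term dropped, 0 members), 1 probe set per gene, or a block on control 2 and TCDD 1 against the others, chosen after the data were seen. With single arrays left out, and with them the other term of the model, which 3 arrays cannot carry, the count ran from 0 to 4 for TCDD, the 4 arising without control 2, and from 0 to 2 for the preparation, the 2 arising without TCDD 1. The back skin to other log2 ratio of the controls correlated at -0.18 (Pearson's r over probe sets) with that of the TCDD arrays. Probe sets are not independent replicates and each preparation has 1 array per group. Whether a preparation effect was present was not tested by this correlation. The members' median difference stayed between 0.04 and 0.14 in all these fits. Members higher in both preparations numbered 24 without control 1 and 33 without control 2, and those lower in both 14 and 22, against 16 and 8; both counts then set both TCDD arrays against 1 control. They were 23 and 7 under median centring and 18 and 9 under quantile normalization. The counts without a control, and the effect of centring on the non-overlapping groups and on control 1, were added after the data were seen. Those lower in both were 13 with no filter, where 82 probe sets enter, and 5 with 1 probe set per gene, where 43 do. Of 22 differences given for named probe sets, 8 changed sign when an array and the preparation term were left out, and none under the other alternatives: the ranges were -0.067 to 0.52 for Psmb7, -0.25 to 0.13 for Psmb6, -0.69 to 0.18 for Psmc6 1417771_a_at, -0.042 to 0.32 for Psmb1 1448166_a_at, -0.91 to 0.27 and -0.023 to 0.69 for Psmd11 1456104_at and 1429370_a_at, and -0.66 to 0.46 and -0.18 to 0.62 for Psme4 1426823_s_at and 1426824_at. The stricter filter left out 4 of the 22. With 2 arrays per group, low signals near the filter were the least certain.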
